A study of Mus musculus with 2 samples.

Results

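Macroautophagy encloses cytoplasm in a double membrane, the autophagosome, and delivers it to the lysosome. The ULK1 kinase complex starts the process, a class III PI3-kinase complex built on Beclin 1 marks the membrane, and an enzyme chain attaches small ubiquitin-like proteins of the ATG8 family (LC3 and GABARAP) to lipid. Cargo receptors then tie their cargo to ATG8. In ferritinophagy the receptor NCOA4 carries ferritin to the lysosome, where its iron is released, and iron of this origin can feed ferroptosis, a cell death driven by lipid peroxidation.

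The 10 genes described here cover each of these steps and were chosen by symbol: Ulk1, Becn1, Atg7, Atg3, Atg5, Map1lc3a, Map1lc3b, Gabarap, Sqstm1 and Ncoa4. All 10 were found among the 26607 rows of the table, each in 1 row, and all 10 passed the expression filter, a mean of at least 1 FPKM (fragments per kilobase of transcript, normalised to library size). The samples were 2 poly(A)-selected RNA libraries from cultured primary microglia, the macrophages that reside in brain and spinal cord. Of these, 1 was labelled as transfected with a Per2-overexpression vector and the other as transfected with a control vector. Per2 is a repressor of the circadian clock. The labels give no strain, age, sex, dose, time after transfection or number of animals, and both cultures were transfected. Each group held 1 library, so no value has a replicate check, no test was possible and every difference describes these libraries only.

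The targeted gene went against the labels. Per2 was measured at 0.927 FPKM under the Per2-overexpression label and at 6.90 FPKM under the control label, so directions below refer to the libraries as labelled. The labels name the organism as mouse, while the gene identifiers and the genome build are rat. Markers listed for the microglia check summed to 2241 FPKM in the overexpression-labelled library and to 2330 FPKM in the control-labelled library over 10 genes, with Cx3cr1 at 0 in both. Tyrobp and Aif1 made up most of these sums. Of the 8 microglia markers past the filter 6 were lower in the overexpression-labelled library, with a median log2 ratio of -0.35, and C1qa (-1.83) and Csf1r (-1.21) were lower by 2-fold or more. The 9 astrocyte markers summed to 196 FPKM in the overexpression-labelled library and to 437 FPKM in the control-labelled library, and all 9 were lower in the first, 5 of them by 2-fold or more. Of 6 oligodendrocyte-lineage markers past the filter, 5 were lower, and the 8 listed summed to 20.9 FPKM in the overexpression-labelled library and to 36.1 FPKM in the control-labelled library. Fibroblast and pericyte markers (7 genes) summed to 786 FPKM in the overexpression-labelled library and to 947 FPKM in the control-labelled library, with 5 of 7 lower. Beside these counts, 64.1% of all 12369 rows past the filter had a log2 ratio below 0, with a median of -0.18. Of the same rows, 5.93% were lower by 2-fold or more. The part that cell makeup had in the differences below was not tested, and in bulk RNA fewer cells of a type and less RNA per cell cannot be told apart.

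PER2 acts on the CLOCK-BMAL1 activator, whose textbook site is the E-box CACGTG, a palindrome that reads the same on both strands and is also the core of the site of TFEB, an activator of lysosomal and autophagy genes. RefSeq promoter windows of the mouse build GRCm38.p6, running from 250 bases before to 50 bases after each annotated start, were found for 8 of the 10 genes. They stand in by symbol for the rat windows, which were not examined and may differ. CACGTG stood in the windows of 3 of these 8 genes, Atg3, Atg5 and Atg7, which encode parts of the ATG8 lipid-attachment machinery. Other genes of that machinery are not among the 10, and their windows were not examined singly. Counted by window, it stood in 3 of the 10 windows of these 8 genes and in 7.15% of all 32851 windows. The stretches that hold it are shown 5′ to 3′ with the E-box in capitals, because it is the sequence through which PER2 would act in the textbook clock.
Atg3, plus strand, chr16:45158719-45158778: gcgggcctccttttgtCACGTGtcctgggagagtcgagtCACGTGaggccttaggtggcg
Atg5, plus strand, chr10:44268279-44268338: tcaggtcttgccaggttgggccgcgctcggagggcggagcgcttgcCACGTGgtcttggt
Atg7, plus strand, chr6:114670936-114670995: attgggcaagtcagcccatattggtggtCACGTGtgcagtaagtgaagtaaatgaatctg
Atg3 held 2 copies, 94 and 71 bases before the start, Atg5 held 1 copy 14 bases before it and Atg7 held 1 copy 132 bases before it. The Atg7 start is an internal one, since the annotated gene begins further upstream. The windows of Ulk1, Map1lc3b, Gabarap, Sqstm1 and Ncoa4 (3 windows) did not hold these letters. A match is a description of the reference sequence, and the files hold no measure of binding.

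None (0) of the 10 genes differed by 2-fold between the libraries in either direction on the scale of FPKM + 1. Across the 12369 rows compared, 8.12% did, of which the higher side in the overexpression-labelled library made up 2.19% and the lower side 5.93%. With 10 genes, a count of 0 is near this background. Log2 ratios below are of FPKM + 1, overexpression-labelled over control-labelled. They were above 0 for 5 of the 10 genes and below 0 for 5, against 35.9% of all rows above 0. The median over the 10 genes was -0.02, beside -0.18 over all rows, and 7 of the 10 lay above that general median. In the plot of levels by library, the genes higher in the overexpression-labelled library are 3 ATG8 genes, Sqstm1 and Atg5, and the widest gaps on the log axis are those of Atg7 and Ncoa4.

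**Figure D1:**
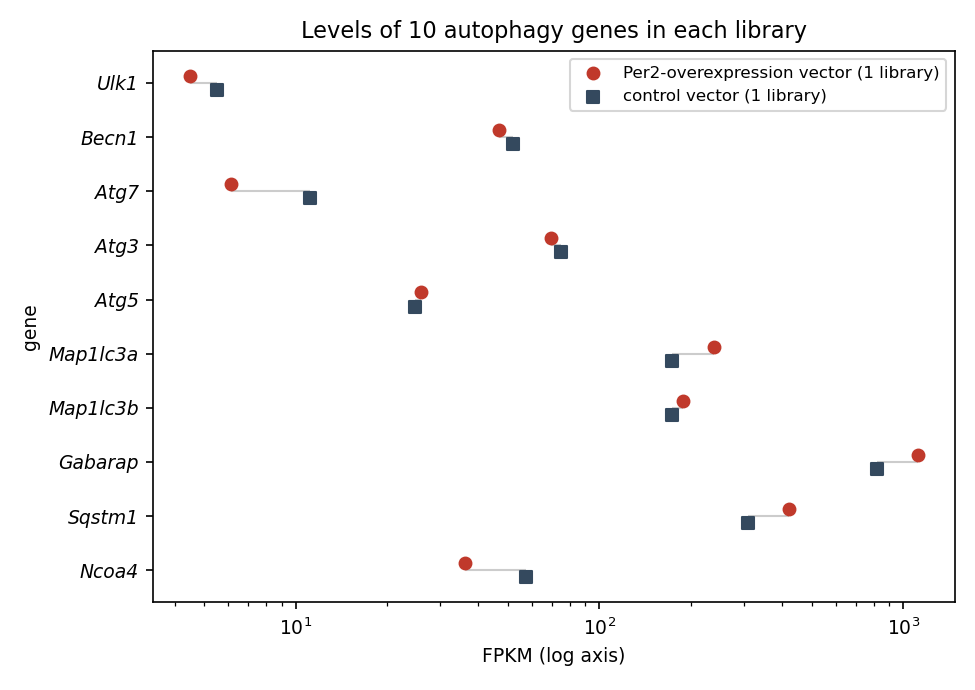
FPKM (log axis) of each of the 10 genes, ordered by step of autophagy, in the library labelled Per2-overexpression vector (circles, upper of each pair) and in the library labelled control vector (squares). Gabarap was the most abundant (1121 FPKM overexpression-labelled, 821 FPKM control-labelled) and Ulk1 the least abundant (4.49 FPKM overexpression-labelled, 5.50 FPKM control-labelled).

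Both initiating genes were slightly lower in the overexpression-labelled library. Ulk1 (ENSRNOG00000037505), the kinase that starts autophagosome formation, had 4.49 FPKM in the overexpression-labelled library and 5.50 FPKM in the control-labelled library, a log2 ratio of -0.24. Becn1 (ENSRNOG00000020513), which encodes Beclin 1, the scaffold of the PI3-kinase complex, had 46.6 FPKM in the overexpression-labelled library against 52.1 FPKM in the control-labelled library, a log2 ratio of -0.16. Both ratios lay close to the general median of -0.18 and both changed sign when the trend with transcript length was removed (0.18 for Ulk1 and 0.22 for Becn1). Ulk2, the paralog of Ulk1, was higher than Ulk1 in each library, at 7.00 FPKM in the overexpression-labelled library and 11.5 FPKM in the control-labelled library. Ulk1 thus stood at 0.641 of the Ulk2 level in the overexpression-labelled library and at 0.477 in the control-labelled library.

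The 3 of the 10 genes that belong to the ATG8 attachment machinery did not move together. Atg7 (ENSRNOG00000007486), the E1-like enzyme that activates ATG8 proteins and ATG12, had 6.12 FPKM in the overexpression-labelled library against 11.2 FPKM in the control-labelled library. Its log2 ratio of -0.78 was the lowest of the 10, and 11.4% of all rows had a ratio as low. Atg3 (ENSRNOG00000002094), the E2-like enzyme that passes ATG8 to lipid, had 69.5 FPKM in the overexpression-labelled library and 74.9 FPKM in the control-labelled library, a log2 ratio of -0.11. The sign of Atg3 turned under median-of-ratios centring (0.01). Atg5 (ENSRNOG00000000322), which is joined to ATG12 and promotes the last transfer, had 26.0 FPKM in the overexpression-labelled library and 24.8 FPKM in the control-labelled library, a log2 ratio of 0.06 that was -0.13 after rescaling to TPM. Relative to Atg7 within the same library, a comparison that no scaling of whole libraries can alter, Atg3 was at 11.3 times its level in the overexpression-labelled library and 6.69 times in the control-labelled library. For Atg5 the multiples were 4.24 in the overexpression-labelled library and 2.22 in the control-labelled library. These gaps between the libraries were smaller after length adjustment. On the log2 scale that of Atg3 to Atg7 was 0.76 as deposited and 0.41 after adjustment. That of Atg5 to Atg7 was 0.94 as deposited and 0.64 after adjustment. The adjusted values are of FPKM + 1 and the deposited ones of FPKM, and the part that length had was not tested. The 3 genes whose promoter windows hold the E-box shown above spanned log2 ratios of -0.78 to 0.06. Those whose windows lack it spanned -0.65 (Ncoa4) to 0.45 (Sqstm1), and a link to the E-box was not tested.

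All 5 measured ATG8 genes, 3 of the 10 and 2 paralogs, had log2 ratios above 0 with the values as deposited, and 2 of 5 (Map1lc3a and Gabarap) did after rescaling to TPM. Gabarap (ENSRNOG00000017417), whose product acts mainly in late autophagosome maturation, had 1121 FPKM in the overexpression-labelled library against 821 FPKM in the control-labelled library, a log2 ratio of 0.45. It ranked 118 by level in each library. Map1lc3a (ENSRNOG00000025443), which encodes LC3A, had 238 FPKM in the overexpression-labelled library and 173 FPKM in the control-labelled library, a log2 ratio of 0.45. Map1lc3b (ENSRNOG00000017905), which encodes LC3B, the usual marker protein of autophagosomes, differed less. It had 188 FPKM in the overexpression-labelled library and 173 FPKM in the control-labelled library, a log2 ratio of 0.12. Map1lc3b went to -0.08 after TPM rescaling, and it was the only one of the 3 whose sign turned under any of the 8 alternatives run. Of all rows, 12.5% had a log2 ratio as high as that of Gabarap and 27.8% as high as that of Map1lc3b. The paralogs Gabarapl1 (51.6 FPKM in the overexpression-labelled library, 50.8 FPKM in the control-labelled library) and Gabarapl2 (76.8 FPKM in the overexpression-labelled library, 72.3 FPKM in the control-labelled library) were nearly level.

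The 5 ATG8 genes summed to 1675 FPKM in the overexpression-labelled library and to 1290 FPKM in the control-labelled library. In the overexpression-labelled library Gabarap made up 66.9% of that sum, Map1lc3a 14.2% and Map1lc3b 11.2%. In the control-labelled library Gabarap made up 63.6%, Map1lc3a 13.4% and Map1lc3b 13.4%. Map1lc3a and Map1lc3b thus stood level in the control-labelled library, while LC3A transcript was at 1.26 times the LC3B level in the overexpression-labelled library. That gap did not hold with the length trend removed, where the adjusted log2 ratio of Map1lc3a was below that of Map1lc3b by 0.17 (difference -0.17). ATG8 genes are a family with related sequence, and how reads matching several copies were counted is not given in the sources used here, so the split between members is uncertain.

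The 2 cargo receptors went opposite ways. Sqstm1 (ENSRNOG00000003147), which encodes p62, the receptor for ubiquitinated cargo and itself degraded by autophagy, had 420 FPKM in the overexpression-labelled library against 308 FPKM in the control-labelled library, a log2 ratio of 0.45. Ncoa4 (ENSRNOG00000019768), the ferritin receptor, had 36.1 FPKM in the overexpression-labelled library against 57.4 FPKM in the control-labelled library, a log2 ratio of -0.65. The sign of each held under all 8 alternatives run, at 0.25 to 0.64 for Sqstm1 and -0.86 to -0.30 for Ncoa4. Of all rows, 12.5% had a log2 ratio as high as that of Sqstm1 and 16.4% one as low as that of Ncoa4. In the wider list described below, 12 of 14 cargo receptors were below 0 and 2 above, beside 64.1% of all rows below 0. With the length trend removed, 9 of the 14 were below 0 and 5 above. Within a library, Sqstm1 stood at 11.6 times the Ncoa4 level in the overexpression-labelled library and at 5.36 times in the control-labelled library, a 2.17-fold gap between the libraries. With the length trend removed, the log2 gap was 0.94, against 1.12 on the deposited FPKM.

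Ferritin, the cargo of NCOA4, was set against its receptor within each library. The light chain gene Ftl1 had 1019 FPKM in the overexpression-labelled library and 537 FPKM in the control-labelled library. The heavy chain gene Fth1, named after its values had been seen, had 22543 FPKM in the overexpression-labelled library and 19283 FPKM in the control-labelled library. Summed ferritin transcript was 653 times the Ncoa4 level in the overexpression-labelled library and 345 times in the control-labelled library, a 1.89-fold gap. Taken separately, the log2 gap of Fth1 to Ncoa4 was 0.89, or 0.40 after length adjustment, and that of Ftl1 to Ncoa4 was 1.59, or 0.82 after it. Processed pseudogenes of ferritin exist in rodents, which makes these levels uncertain, and transcript levels do not measure autophagic flux. Ireb2, which encodes an iron-regulatory protein that controls ferritin translation, had 5.34 FPKM in the overexpression-labelled library and 10.7 FPKM in the control-labelled library. Its log2 ratio was -0.88, or -0.44 after length adjustment.

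The ratios of the 10 genes varied with transcript length, as those of all genes did. The longest mouse protein-coding transcript of the same symbol (GENCODE M21) was used in place of the rat one. Across 10139 genes with such a length, Spearman's rho between log2 ratio and length was -0.50, a description across genes that share their libraries. The median log2 ratio was 0.19 in genes under 2000 nt, -0.17 in genes of 2000 to 3000 nt and -0.38 in genes of 3000 nt and over. Map1lc3a (1112 nt) and Gabarap (1351 nt), both among the highest ratios of the 10, were the only ones in the first class. Ncoa4 (4065 nt), Atg7 (3895 nt), Becn1 (4365 nt) and Ulk1 (5213 nt) were in the last, and they held the 4 lowest ratios.

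**Figure D2:**
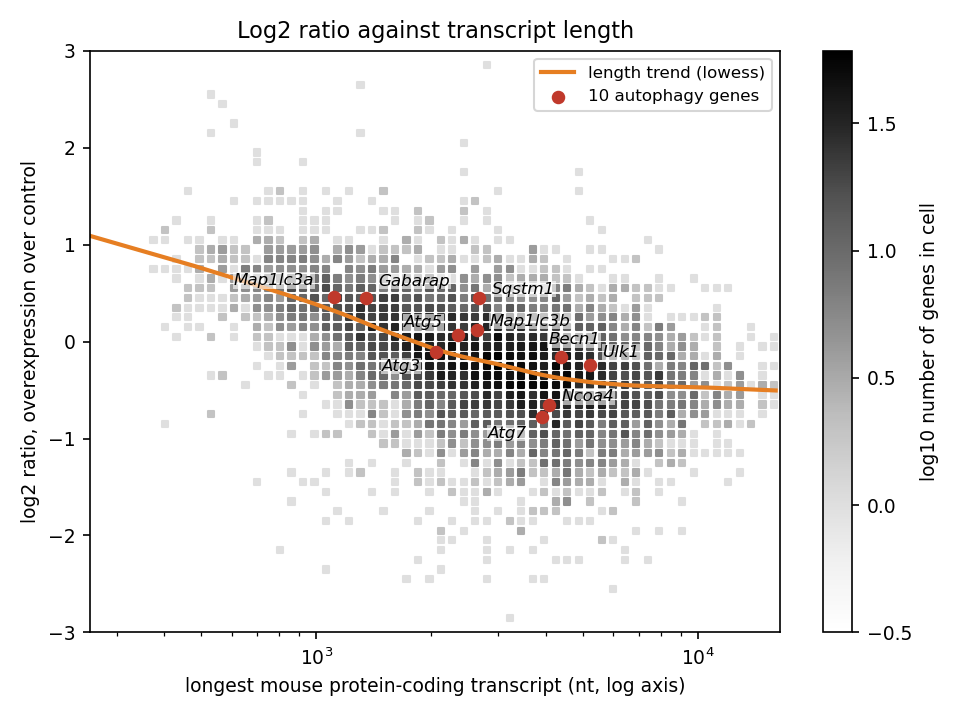
Log2 ratio of FPKM + 1 (overexpression-labelled over control-labelled) against the longest mouse protein-coding transcript (nt, log axis). Grey squares show how many of 10139 genes fall in each cell (those outside the drawn area are left out), the line is the lowess trend and red points are the 10 genes. Sqstm1 stands above the line by 0.64, and Atg7 below it, at -0.43.

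With the trend removed, 7 of the 10 genes lay above 0 and 3 below, with a median of 0.19, against -0.0059 over all genes with a length. The removal also recentres the ratios. Sqstm1 was then the highest, at 0.64, and 5.26% of genes with a length were as high. Map1lc3b (0.31), Gabarap (0.26) and Map1lc3a (0.14) also lay above the trend, with 19.9%, 23.4% and 34.4% of genes as high. Atg7 (-0.43) and Ncoa4 (-0.30) stayed below it, with 14.1% and 21.6% of genes as low. None (0) of the 10 was past 2-fold after adjustment, against 3.75% of genes with a length.

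**Figure D3:**
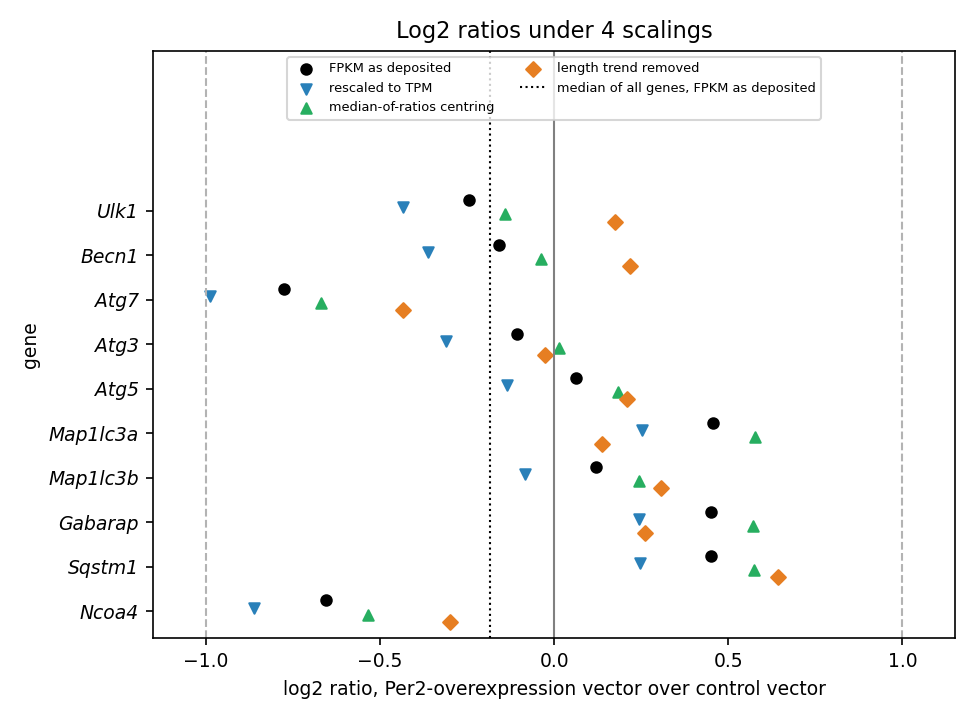
Log2 ratio of each of the 10 genes with FPKM as deposited, after rescaling to TPM, after median-of-ratios centring and with the length trend removed. Dashed lines mark 2-fold and the dotted line the median of all genes as deposited (-0.18). Map1lc3a, Gabarap and Sqstm1 stay right of 0 and Ncoa4 and Atg7 left of it under all 4.

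The 10 genes were then set in a list of 96 autophagy genes in 10 roles, which includes them. Of the 96, 94 were in the table and 90 passed the filter. Among these 90, 23 had a log2 ratio above 0 and 67 below, beside 64.1% of all rows below 0, with a median of -0.27, beside -0.18 over all rows. None (0) was higher by 2-fold, against 2.19% of all rows, and 3 (3.33%) were lower by 2-fold or more, against 5.93% of all rows. With the length trend removed, 44 of the 89 with a length lay above 0 and 45 below, and the median was -0.00037.

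The 3 lower genes were Ccpg1, Vps41 and Tfe3. Ccpg1, a receptor for autophagy of the endoplasmic reticulum, had 4.12 FPKM in the overexpression-labelled library and 18.1 FPKM in the control-labelled library, a log2 ratio of -1.90. Vps41, a subunit of the HOPS complex that tethers membranes to lysosomes, had 6.09 FPKM in the overexpression-labelled library and 25.1 FPKM in the control-labelled library (-1.88). Tfe3, a transcription factor of lysosomal and autophagy genes related to TFEB, had 2.75 FPKM in the overexpression-labelled library and 8.68 FPKM in the control-labelled library (-1.37). All 3 stayed past 2-fold with the length trend removed, at -1.64, -1.62 and -1.08. Mitf, of the same factor family as Tfe3, ran the other way at low levels, 2.32 FPKM in the overexpression-labelled library and 1.06 FPKM in the control-labelled library. Its log2 ratio of 0.69 became 1.09 with the length trend removed.

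By role, the ATG8 proteins were the only group with all members (5 of 5) above 0 on the deposited scale, under median-of-ratios centring and with the length trend removed, but 2 of 5 were above 0 after rescaling to TPM. The counts by role below are for the deposited values, with 64.1% of all rows below 0, and several turn with the length trend removed. In the ULK complex 4 of 5 genes were below 0, from Atg13, an adaptor of the kinase (1.86 FPKM in the overexpression-labelled library, 4.29 FPKM in the control-labelled library), up to Atg101, its partner and the only one above (38.8 FPKM in the overexpression-labelled library, 28.8 FPKM in the control-labelled library), and 3 of 5 were below with the trend removed. In the PI3-kinase complexes 7 of 8 were below 0 (6 of 8 with the trend removed), Becn1 being the second highest. Pik3r4, the regulatory subunit VPS15, was the lowest there, with 2.33 FPKM in the overexpression-labelled library and 5.28 FPKM in the control-labelled library, and Atg14, which directs the complex to autophagy, was level (3.31 FPKM in the overexpression-labelled library, 3.29 FPKM in the control-labelled library). Phagophore growth genes turned: 7 of 9 were below 0 as deposited, with a median of -0.07, and 7 of 9 were above with the length trend removed, with a median of 0.24. Under median-of-ratios centring 6 of 9 were above. As deposited they lay between Tmem41b, a lipid scramblase (-0.41), and Wdr45, a phosphoinositide-binding protein (0.20).

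In the attachment group, 6 of 9 were below 0 (5 of 9 with the trend removed). The protease gene Atg4c was the lowest there, with 18.5 FPKM in the overexpression-labelled library and 37.9 FPKM in the control-labelled library (log2 ratio -0.99), and its relative Atg4d was the highest, with 14.0 FPKM in the overexpression-labelled library and 11.3 FPKM in the control-labelled library. Among 14 cargo receptors 12 were below 0 (9 with the trend removed), and Sqstm1 was the highest. Of 12 fusion genes 11 were below 0, with a median of -0.34, but with the length trend removed 6 of the 11 with a length were above and 5 below, with a median of 0.0079. The exception as deposited was Vamp8, a SNARE of lysosomal fusion, with 534 FPKM in the overexpression-labelled library and 328 FPKM in the control-labelled library (0.70). In the upstream regulators 8 of 11 were below 0 as deposited, while 6 were above and 5 below with the trend removed. The ferritinophagy partners split 4 to 4 as deposited and 6 above to 2 below with the trend removed, and on the deposited scale Ftl1 was the highest (0.92) and Ireb2 the lowest. Of 9 genes of lysosomal acidification and degradation 8 were below 0 on either scale, between Atp6v1a (-0.69) and Atp6v0d1 (0.06), both subunits of the proton pump.

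**Figure D4:**
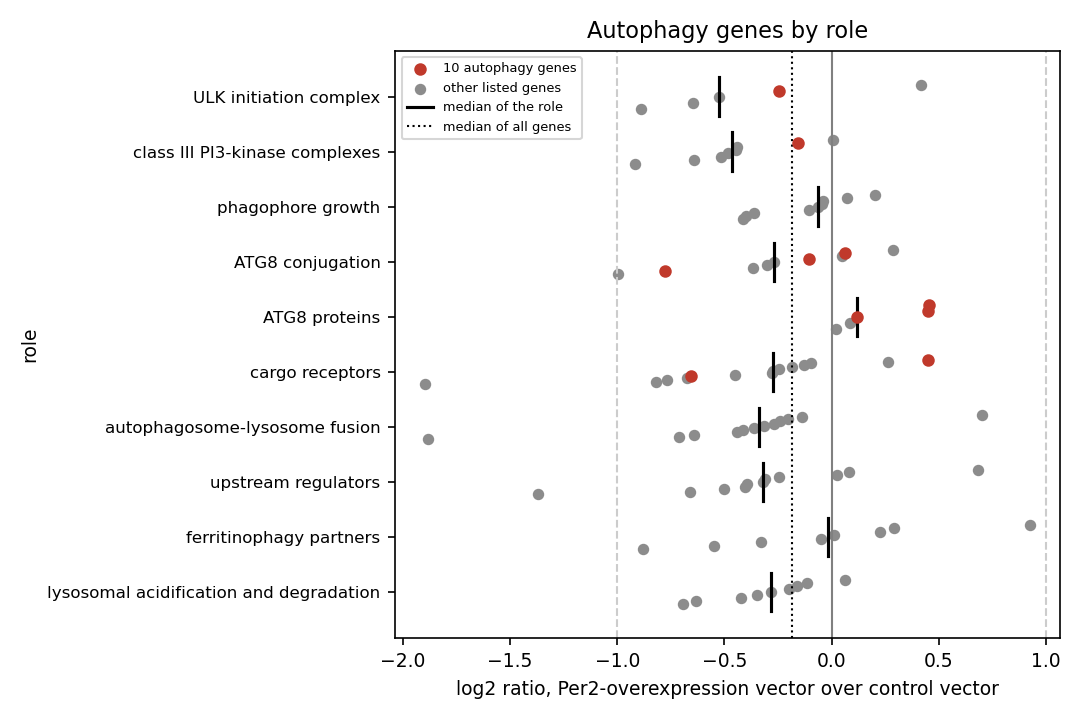
Log2 ratio of FPKM + 1 (overexpression-labelled over control-labelled) of 90 autophagy genes by role, with the 10 genes in red, other listed genes in grey and a bar at the median of each role. Only the ATG8 proteins lie wholly right of 0 on this scale (2 of 5 do after rescaling to TPM), and the points left of the dashed line at -1 are Ccpg1, Vps41 and Tfe3.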

How the data were processed

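The authors deposited FPKM values, 1 per gene and library. HISAT2, StringTie, DESeq2, edgeR and the rat build Rnor_6.0 are named without versions, per the submitters' processing notes. Which steps they ran, and any read filters, are not stated there. No step marking strand is named, per the labels' protocols. Columns were assigned by the library names in the labels. FPKM are not counts, and no common step of 1 read was found (of 1286 genes under 0.3 FPKM in both libraries, at most 6 shared a ratio to 3 decimals), so depth is unknown. FPKM summed to 760286 in the overexpression-labelled library and 659696 in the control-labelled library.

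Log2 ratios used a pseudocount of 1 FPKM, and rows with a mean of at least 1 FPKM were compared. A rule of 2-fold stood in place of a test. The length trend was a lowess fit (span 0.3, statsmodels 0.14.6). The fit was also run on simulated data with a straight trend in log2 length. The trend here was curved, so that run does not vouch for the adjusted values. Of the compared rows, 82.0% had a length. Named genes were the 10, listed genes past 2-fold, the highest and the lowest of each role, and Ulk2, Gabarapl1 and Gabarapl2. Outside this rule, Fth1 was added after its values had been seen. The 10 genes and the lists were chosen with earlier results of these data known. Alternatives were other pseudocounts, filters, scalings, a length correction and summed duplicate rows.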

Additional observations from a re-analysis of the deposited data

How the results depend on the processing

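No paired analysis was possible because each group held 1 library. Of the 10 genes, 5 (Ncoa4, Atg7, Map1lc3a, Sqstm1 and Gabarap) kept their sign under the 8 alternatives and 5 did not (Atg3 under median-of-ratios centring, Atg5 and Map1lc3b under TPM, Becn1 and Ulk1 without the length trend), and none (0) passed 2-fold under any. Ulk1 falls out under a mean of at least 5 FPKM. The median of the 10 was 0.064 at a mean of at least 5 FPKM, -0.22 under TPM, 0.10 under median-of-ratios centring and 0.19 without the length trend. In the wider list, 1 gene was at least 2-fold higher with a pseudocount of 0.1, under centring and without the length trend. Over all rows these counts were 413, 405 and 137. Of the 90 listed genes, 7 (pseudocount of 0.1) or 8 (TPM) were at least 2-fold lower, beside 1304 and 1400 of all 12369 rows. The median of the wider list was -0.47 under TPM, -0.16 under centring and -0.00037 without the length trend. Over all rows, 413, 120 and 137 were at least 2-fold higher with pseudocounts of 0.1 and 5 and without the length trend, and 1304, 164, 366, 1400 and 243 at least 2-fold lower with pseudocounts of 0.1 and 5, a mean of at least 5 FPKM, TPM and without the length trend. Their median was 0 with no filter, -0.37 under TPM, -0.079 under centring and -0.0059 without the length trend. The causes were not tested. Depth is unknown, so counting error could not be given for any level.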
